A study of Mus musculus with 2 samples.

Results

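The genes described here encode the nuclear-encoded subunits of the oxidative phosphorylation machinery. They were taken by name from the gene table of the files: symbols beginning with Ndufa, Ndufb, Ndufc, Ndufs, Ndufv, Uqcr, Cox4i, Cox5, Cox6, Cox7, Cox8 or Atp5, together with Sdha, Sdhb, Sdhc and Sdhd. Ndufaf genes and pseudogenes were left out, and at least 100 UMIs over both libraries were required. A UMI (unique molecular identifier) stands for 1 captured transcript. This gave 81 of 27998 genes, with 37 in complex I, 4 in complex II, 8 in complex III, 15 in complex IV and 17 in complex V. Of the names that matched, 4 had too few UMIs, namely Ndufa4l2 with 95, Cox4i2 with 78, Cox7b2 with 28 and Cox8c with 0. Just inside the limit were Cox7a1 with 397 UMIs and Cox8b with 924. A few names do not match the subunit they carry. Ndufa4 is now known as a subunit of complex IV, and Atp5s and Atp5sl encode assembly-related proteins of the inner membrane rather than subunits. The genes keep the complex of their name here.

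Oxidative phosphorylation takes place in the inner mitochondrial membrane. Complexes I and II pass electrons from NADH and succinate to ubiquinone, complex III passes them to cytochrome c, and complex IV passes them to oxygen. Complexes I, III and IV pump protons, and complex V, the ATP synthase, lets them flow back to make ATP. All complexes except II mix nuclear subunits with subunits encoded by the mitochondrial genome, so the products of 2 genomes have to be matched. In the neural stem cell lineage, quiescent cells are known to rely on fatty acid oxidation and glycolysis, and the respiratory chain is known to be engaged as cells are activated and differentiate.

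The data are 2 single-cell libraries, 1 per age, of neural stem cells from the subventricular zone (SVZ), the germinal layer beside the lateral ventricles of adult mouse brain. Both groups are C57BL/6 mice without any other treatment named, aged 2 months (young) and 15 to 18 months (aged). SVZ tissue of 5 mice was pooled for each library, and the dissociated cells were kept in proliferation medium, so the values describe cultured cells. The libraries were made with the 10x Genomics 3′ version 3 chemistry. The filters left 2639 young cells (58891207 UMIs, median 22951 per cell) and 2527 aged cells (60140272 UMIs, median 23745). Among the barcodes of both libraries 4 were shared, and 0 of these were among the kept cells. The list for G2 and mitosis summed to 4529 CPM (young) and 4582 CPM (aged), where CPM is a count scaled to the total UMIs of the library, and the list for astrocytes or quiescent stem cells to 1794 and 2143 CPM, whereas the microglial markers C1qa, C1qb, C1qc, Tmem119 and Ctss, the endothelial markers Cldn5 and Tie1, and Mog of mature oligodendrocytes had no UMI in either library. The microglial list as a whole summed to 1.65 CPM in the young and 0.748 CPM in the aged cells. The endothelial list summed to 7.61 and 6.52 CPM, mostly Egfl7. The mural list summed to 2.90 and 1.96 CPM and the ependymal list to 8.52 and 6.90 CPM. The mature neuron list summed to 24.3 and 32.6 CPM and the mature oligodendrocyte list to 71.6 and 57.2 CPM, mostly Cnp. The oligodendrocyte precursor list summed to 1761 and 1494 CPM, mostly Olig1 and Olig2, which other progenitors of the SVZ also express. With 1 library per age, age, culture and library cannot be told apart. No test was therefore made, and every interval is a 95% interval that covers counting error only. A share of UMIs is relative, so it does not show how much RNA a cell holds.

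The promoters of these genes are known for binding sites of NRF1 (nuclear respiratory factor 1), of the ETS factor GABPA (nuclear respiratory factor 2) and of YY1. Promoter windows reaching from 250 bases before to 50 bases after the start were found for 69 of the 81 genes in RefSeq (build GRCm38.p6). The NRF1 core, a GC-rich element with 1 free position, was searched on both strands and was present in 17 of the 69 (24.6%) against 5.19% of 27025 genes. The ETS core CCGGAAG was present in 16 (23.2%) against 9.93%, and the YY1 core AAGATGGC in 11 (15.9%) against 3.19%. The SP1 box GGGCGG was about as frequent in the 69 promoters as in all genes, in 28 (40.6%) against 38.2%. At least 1 of the first 3 cores was found in 38 of the 69 (55.1%). The same share was not computed over all genes, so this value has no background to be read against. A match is a description of the letters and not a bound site. The following stretches show the NRF1 core, in capitals, upstream of genes of 3 complexes: Sdha and Sdhd of complex II, Cox6a1 of complex IV, the common partner of the isoform Cox6a2 described below, and Ndufs5 of complex I. They are 120 bases each, read 5′ to 3′ along the minus strand of GRCm38, for Sdha at chr13:74350281-74350400, Sdhd at chr9:50603850-50603969, Cox6a1 at chr5:115348982-115349101 and Ndufs5 at chr4:123718203-123718322.
Sdha: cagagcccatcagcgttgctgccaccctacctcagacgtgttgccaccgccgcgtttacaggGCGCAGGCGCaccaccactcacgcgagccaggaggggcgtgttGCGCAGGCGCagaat
Sdhd: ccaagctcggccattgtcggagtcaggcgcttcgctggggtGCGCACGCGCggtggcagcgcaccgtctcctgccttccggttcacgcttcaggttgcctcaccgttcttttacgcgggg
Cox6a1: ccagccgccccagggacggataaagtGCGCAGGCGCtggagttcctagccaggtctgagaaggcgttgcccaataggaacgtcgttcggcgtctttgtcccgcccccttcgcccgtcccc
Ndufs5: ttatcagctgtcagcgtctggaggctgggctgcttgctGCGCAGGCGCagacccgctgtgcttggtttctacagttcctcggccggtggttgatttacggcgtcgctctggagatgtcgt

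The 81 genes were highly expressed. Together they gave 3.39% of all UMIs of the kept young cells and 3.56% of those of the aged cells. In both libraries 71 of them were at 100 CPM or more and 27 at 500 CPM or more. Only 5 stayed under 10 CPM in both, namely Cox6a2, Cox8b, Cox7a1, Atp5s and Atp5sl. Levels are UMIs of 3′ ends, which are not divided by transcript length, so they compare numbers of captured transcripts between genes. The highest levels belonged to Cox4i1, an abundant nuclear subunit of complex IV in its common isoform, at 1368 CPM in the young and 1396 CPM in the aged library, and to Atp5b, the catalytic beta subunit of ATP synthase, at 1364 and 1387 CPM. Cox8a, the common isoform of the smallest complex IV subunit, followed at 1147 and 1259 CPM.

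The first comparison asked how these transcripts differed between the aged and the young library. The differences were small and mostly in 1 direction. Of the 76 genes that reached 10 CPM in 1 library or both, 58 were higher and 18 lower in the aged library by any amount, where 55.4% of all 8331 genes were higher. Complex IV stood highest, with a median log2 ratio of 0.14, and complex II lowest, with 0.05. A gene was counted as apart at 1.2-fold or more, on the scale of CPM plus 1. In the aged library 6 of the 76 were higher by this rule, against 6.22% of all genes tested, and 0 were lower, against 4.8%. The count of 6 is thus near the background, and at 1.5-fold none of the 76 genes was apart in either direction, against 0.804% higher and 0.756% lower among all genes. The median log2 ratio of the 76 genes was 0.07, beside 0.02 for all genes. Summed over the set, the aged share of UMIs was 1.05 times the young one (1.048 to 1.052), and the ratio stayed between 1.036 and 1.080 over 10 alternative filters, scalings and weightings.

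**Figure D1:**
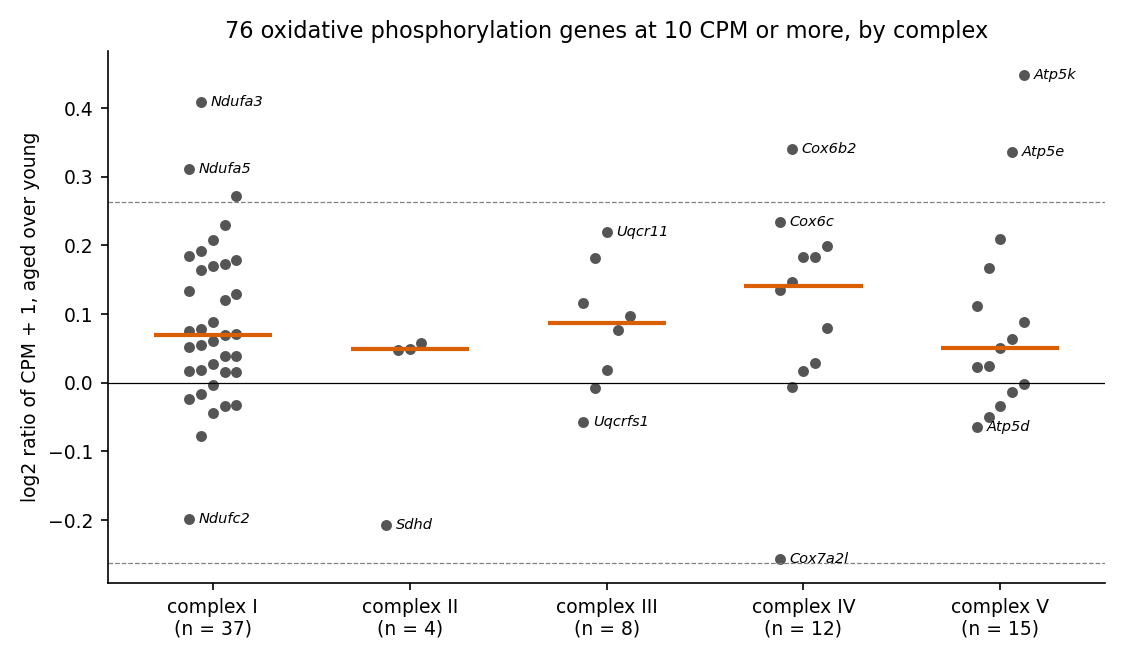
Each point is 1 of the 76 genes that reached 10 CPM, placed by complex, and the y axis gives the log2 ratio of CPM plus 1 in the aged over the young library. Bars mark the medians of 0.07, 0.05, 0.09, 0.14 and 0.05 for complexes I to V, the dashed lines mark 1.2-fold, and 6 points lie above the upper line and 0 below the lower one.

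Complex I, the NADH dehydrogenase, took 1.16% of young and 1.21% of aged UMIs, and 29 of its 37 genes were higher in the aged library. Its most abundant transcripts were Ndufc2, an accessory subunit of the membrane arm, and Ndufa4. Ndufa4 stood at 943 CPM in the young and 1026 CPM in the aged library, whereas Ndufc2 stood at 1058 and 922 CPM, the lowest ratio of the complex. Ndufab1, the mitochondrial acyl carrier protein, stood at 590 CPM (young) and 572 CPM (aged), and the membrane-arm subunit Ndufb8 at 573 and 601 CPM. Ndufs1, the largest iron-sulphur subunit, was the least abundant at 81.8 and 83.4 CPM. Ndufa3, a small accessory subunit of the membrane arm, was 1.33-fold higher in aged cells (1.29 to 1.38), at 122 against 91.8 CPM, and lies on chromosome 7 (chr7:3617373-3620327, plus strand, GRCm38 with GENCODE vM21, as for all positions of genes below). Ndufa5, an accessory subunit of the arm that reaches into the matrix, was 1.24-fold higher (1.21 to 1.27), at 255 against 205 CPM. Ndufa2, in the same arm, stood at 349 against 289 CPM. Ndufs8, a core subunit that carries iron-sulphur clusters, was the next lowest after Ndufc2, at 190 against 200 CPM.

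Complex II, the succinate dehydrogenase, is also an enzyme of the tricarboxylic acid cycle. It was the only complex whose summed share was not above that of the young library, with 0.0795% against 0.0798% of UMIs, a ratio of 0.997 (0.984 to 1.01) that ran from 0.983 to 1.035 over 10 alternatives. Sdhd (chr9:50596357-50603812, minus strand), which encodes a membrane anchor of the enzyme, was lower in the aged library, with 160 against 185 CPM in the young one. The other members were slightly higher. The flavoprotein gene Sdha stood at 188 against 182 CPM, the iron-sulphur subunit gene Sdhb at 280 against 271 CPM and the other anchor, Sdhc, at 167 against 160 CPM.

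Complex III, the cytochrome c reductase, took 0.328% of aged and 0.307% of young UMIs, a ratio of 1.07 (1.06 to 1.08). Its most abundant transcript was Uqcrh, the hinge protein at the cytochrome c side, at 730 against 692 CPM in the aged and young libraries. Uqcrq, a small subunit near the ubiquinone site, stood at 652 against 602 CPM, and the small subunit gene Uqcrb at 470 against 439 CPM. The core protein gene Uqcrc2 was the least abundant at 209 against 207 CPM. Higher ratios belonged to the small subunits Uqcr11 (372 against 319 CPM) and Uqcr10 (393 against 346 CPM). The Rieske iron-sulphur protein gene Uqcrfs1 was at 232 against 241 CPM and the core protein gene Uqcrc1 at 223 against 224 CPM.

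Complex IV, the cytochrome c oxidase, took 0.835% of aged and 0.782% of young UMIs, a ratio of 1.07 (1.06 to 1.07). Its mitochondrially encoded subunits form the catalytic centre, and the nuclear subunits surround it. Cox6c, a small membrane subunit, was at 699 against 595 CPM and Cox7c at 933 against 813 CPM. Cox5a, on the matrix side, stood at 976 against 964 CPM, and Cox5b at 512 against 515 CPM. Cox7a2l (chr17:83501918-83517330, minus strand) had the lowest ratio of the 76 genes, at 342 CPM in the aged against 409 CPM in the young library. Its ratio of 0.837 (0.821 to 0.852) fell just short of the 1.2-fold rule. Its product joins complexes III and IV into supercomplexes, and C57BL/6 mice are known to carry a shortened form of it. Cox7a2l and Ndufc2 were lower in aged cells in 13 of 13 clusters of cells, and Sdhd was higher in 1 of the 13.

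Complex V, the ATP synthase, took 1.11% of aged and 1.06% of young UMIs, a ratio of 1.04 (1.04 to 1.05). The alpha subunit of the head, Atp5a1, stood at 910 against 896 CPM, and Atp5o, which ties the head to the stator stalk, at 918 against 927 CPM. The largest ratio of all 76 genes was that of Atp5k, the small subunit e of the membrane part, which reached 304 against 223 CPM, 1.37-fold (1.34 to 1.40), and lies at chr5:108433244-108434448 on the minus strand. Atp5e (chr2:174461072-174464105, minus strand), the epsilon subunit of the rotor, was 1.26-fold higher (1.24 to 1.29), at 472 against 373 CPM. At the other end, the rotor genes Atp5d (564 against 590 CPM) and Atp5c1 (802 against 830 CPM) were slightly lower. The named genes Atp5s and Atp5sl were rare, at 7.58 against 6.06 CPM and 5.80 against 5.37 CPM.

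Several subunits exist as a common form and a form known from heart and skeletal muscle or testis, and the common form gave nearly all UMIs. Cox6a2, the heart and muscle isoform of subunit 6a, gave 0.732% of the Cox6a UMIs for young and 1.79% for aged cells. Cox8b gave 0.114% and 0.200% of the Cox8 UMIs, and Cox7a1 0.189% and 0.172% of those it forms with Cox7a2. Cox7a2 itself stood at 502 CPM in the young and 570 CPM in the aged library, Cox6a1 at 453 and 515 CPM, and Cox6b1 at 616 and 650 CPM. Cox6b2, known from testis, was less rare. It gave 3.73% of young and 4.48% of aged Cox6b UMIs, at 23.9 and 30.5 CPM. Atp5g1, Atp5g2 and Atp5g3 differ in their targeting sequence and encode the same mature c subunit of the rotor ring. They shared its UMIs at 32.9%, 39.0% and 28.0% in the young library and at 32.6%, 41.5% and 25.9% in the aged library. Atp5g2 had the highest ratio of these 3, at 997 against 888 CPM, while Atp5g1 was at 783 against 749 CPM and Atp5g3 at 622 against 637 CPM.

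The larger ratios lay among the shortest transcripts, and each of the 6 genes past 1.2-fold had a median spliced transcript under 600 bases. Of the 76 genes, all 11 with a median spliced transcript under 500 bases were higher in the aged library, with a median log2 ratio of 0.18. Cox8b and Cox7a1, also under 500 bases, did not reach 10 CPM and are not among them. From 500 to below 600 bases 13 of 15 were higher (median 0.16). From 600 to below 800 bases 12 of 16 were higher (median 0.04). From 800 to below 1200 bases 7 of 13 were higher (median 0.04), from 1200 to below 2000 bases 9 of 14 (median 0.02), and from 2000 bases on 6 of 7 (median 0.05). Genes outside the set were more often higher at both ends of the length range. Of 5525 others from 2000 bases on 62.0% were higher (median 0.04), against 36.5% of 249 from 600 to below 800 bases (median −0.03). Of 54 other genes under 500 bases 74.1% were higher (median 0.11), among them 10 of 11 ribosomal protein genes (median 0.20) and 2 of 4 mitochondrial ribosomal protein genes (median −0.003), while of 658 others from 800 to below 1200 bases 37.1% were higher (median −0.04). Spearman's rho of length with the log2 ratio was −0.56 over the 76 genes and 0.23 over 8175 other genes. Both are descriptions across genes of the same pair of libraries. The part of transcript length, or of how short fragments were captured or sequenced in either library, was not tested. Within complex I the 7 core subunits, whose median length is 1312 bases, had a median log2 ratio of 0.03, and the 30 accessory subunits, with 674.5 bases, 0.08.

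**Figure D2:**
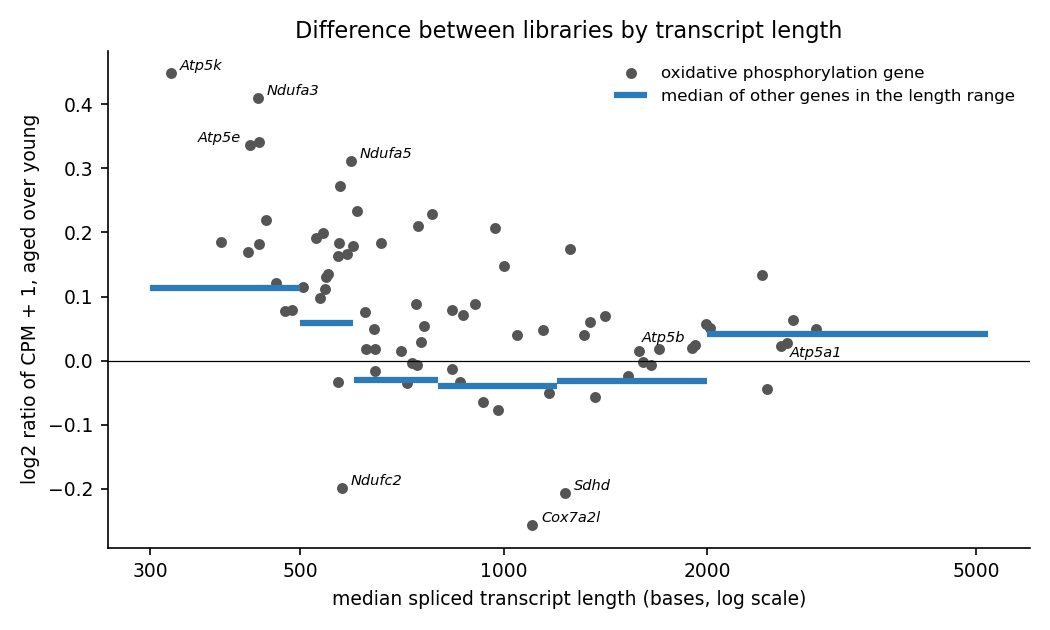
Points are the 76 genes, the x axis is the median length of their spliced protein-coding transcripts in bases on a log scale, and the y axis is the log2 ratio of CPM plus 1, aged over young. Blue bars are the medians of other genes in the same length ranges, which go from 0.11 under 500 bases to −0.04 from 800 to below 1200 bases and 0.04 from 2000 bases on.

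The other mitochondrial gene lists differed among each other in direction. The mitochondrially encoded subunits took 8.04% of young and 8.02% of aged UMIs, and the cell filter had used these very genes. Of the 13 8 were higher and 5 lower, and mt-Nd3 stood at 634 CPM in the young and 1201 CPM in the aged library. The assembly factors of complex I were mixed, with 6 of 15 higher and a median log2 ratio of −0.04. Ndufaf7 was at 29.4 against 35.8 CPM and Tmem126a at 161 against 192 CPM in the aged and young libraries. All 4 assembly factors of complex II were slightly lower, Sdhaf1 at 78.5 against 85.4 CPM. For complex IV 11 of 20 were higher (median 0.02), with Pet100 at 44.9 against 33.7 CPM and Sco2, a copper chaperone gene, at 26.3 against 31.7 CPM. For complex III 3 of 5 were higher, Uqcc2 at 264 against 228 CPM, and for complex V 1 of 4, the ATP synthase inhibitor gene Atpif1, at 478 against 437 CPM.

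The mitochondrial ribosomal protein genes leaned lower, with 28 of 76 higher in the aged library and a median of −0.02, and of 17 import genes 7 were higher (median −0.02). Tricarboxylic acid cycle genes had a median of 0.05 with 10 of 16 higher, and glycolysis genes a median of −0.09 with 6 of 15 higher. In that list Pfkl, the liver-type phosphofructokinase, was at 13.5 against 21.1 CPM and the aldolase gene Aldoc at 67.3 against 47.8 CPM. Among 10 regulators of mitochondrial biogenesis 4 were higher (median −0.02). Ppargc1a, the coactivator PGC-1 alpha, stood at 37.3 against 28.1 CPM, and the nuclear receptor gene Esrra, its partner, at 31.5 against 37.4 CPM. Nrf1 was at 36.1 against 35.0 CPM and Gabpa at 36.9 against 38.7 CPM. Genes for further subunits and carriers outside the naming rule were split, with cytochrome c1 (Cyc1) at 369 against 370 CPM and the small ATP synthase subunit Usmg5 at 223 against 188 CPM.

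The second comparison asked how the genes vary between cell states. Cells were grouped without using the 81 genes or the mitochondrially encoded genes, which gave 13 clusters, and each cluster was set against all other cells of the same library. A gene was counted when it was at least 1.2-fold apart in the same direction in both libraries. Clusters 12 and 13 hold shallow cells, with medians of 3156 and 2083.5 UMIs in the young library, and are given last. Among the 11 deep clusters the summed share of UMIs ran from 3.01% to 3.82% in the young and from 3.16% to 4.21% in the aged library. Cluster 4 was lowest and cluster 1 highest in both. Over the 11 deep clusters of both libraries (22 points) the log2 CPM of a gene had a median Pearson r of 0.83 with the summed CPM of the other members, and r was at least 0.5 for 69 of 81. Among the genes at 10 CPM or more this held for 67 of the 76 members, and for 12.6% of all 8331 genes, many of which have fewer UMIs. These points share libraries and depth, and r is given as a description only.

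**Figure D3:**
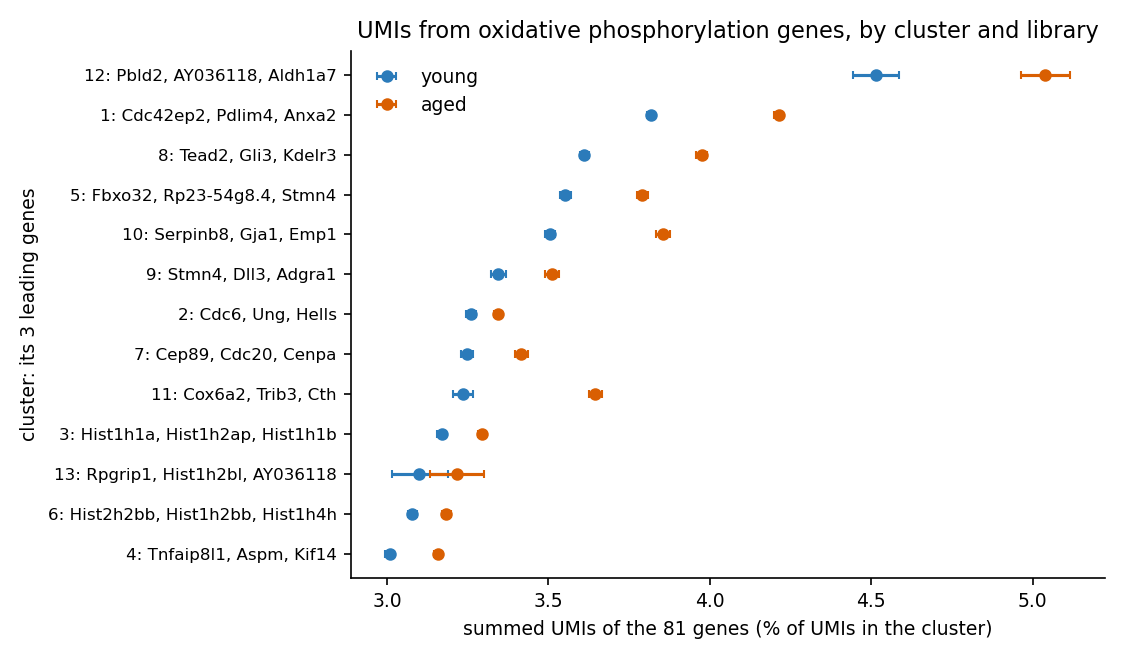
Rows are the 13 clusters, ordered by the young value and labelled by their 3 leading genes, and the x axis is the share of all UMIs of the cluster that come from the 81 genes, in percent. Points are the 2 libraries with 95% Clopper-Pearson intervals for counting error. The aged point lies to the right of the young point in each row, and among deep clusters the values run from 3.01% in cluster 4 to 4.21% in cluster 1.

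Cluster 1 held 475 young and 330 aged cells and was led by Cdc42ep2, Pdlim4 and Anxa2, with the astroglial gap junction gene Gja1 among its 10 leading genes. Of 18 markers of astrocytes or quiescent stem cells 7 were raised, more than for any other type, but with 1 of them among the leading genes the cluster was left unnamed. Of its 76 genes tested, 24 were higher in both libraries against 11.7% of all genes, and 0 were lower against 16.5%. By complex the 24 were 10 of 37 in complex I, 3 of 4 in complex II, 5 of 8 in complex III, 2 of 12 in complex IV and 4 of 15 in complex V. The mitochondrially encoded share was also slightly higher there, 8.25% of UMIs for young and 8.52% for aged cells (1.033- and 1.072-fold the other cells).

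Uqcrc1, the first core protein of complex III, stood at 309 CPM in cluster 1 against 205 CPM in the other young cells, 1.504-fold (1.45 to 1.57), and at 309 against 210 CPM in the aged cells, 1.47-fold (1.41 to 1.54). Ndufv3, an accessory subunit of the NADH-binding module, stood at 133 against 89.9 CPM in the young and at 133 against 91.0 CPM in the aged library. Sdhd was at 234 against 174 CPM in the young and at 206 against 153 CPM in the aged library, although its level was lower in the aged library as a whole. Cox6b2 was 1.51-fold (1.33 to 1.71) and 1.91-fold (1.71 to 2.13) higher. Atp5b, the abundant catalytic subunit, was 1.30-fold and 1.28-fold higher. Both libraries thus gave nearly the same ratios for these genes, Cox6b2 excepted.

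Within complex I the counts in cluster 1 separated by role, a grouping made after the values had been seen. Of the 7 nuclear-encoded core subunits, which carry the flavin and the iron-sulphur clusters, 6 were at least 1.2-fold higher in both libraries, with medians of 0.32 and 0.38 on the log2 scale. Of the 30 accessory subunits 4 were, with medians of 0.18 and 0.27. Ndufv1, which binds NADH and the flavin, stood at 184 against 148 CPM in young and at 188 against 147 CPM in aged cells. The difference between the groups was not tested, and core subunits have longer transcripts.

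Some cycling states were at the other end, while the cycling clusters 8 and 10, given below, were not. Cluster 4 was G2 and mitosis-like, with 18 of 18 markers raised and Aspm, Prc1 and Cenpe among its leading genes, and held 221 young and 254 aged cells. Of 76 genes 0 were higher in both libraries against 11% of all genes, and 7 were lower against 11.6%. These were Ndufs3, Ndufv3, Sdhd, Uqcrh, Uqcrc1, Uqcrc2 and Cox7b. The count is below the background, while the medians were −0.20 for young and −0.21 for aged cells, beside −0.01 and −0.02 for all genes tested. Uqcrc1 stood at 170 against 230 CPM in the young and at 189 against 228 CPM in the aged library, and Sdhd at 144 against 190 CPM and at 128 against 165 CPM. In cluster 4 cells had medians of 30372 and 33245.5 UMIs, above those of all kept cells, and the part of depth was not tested.

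The other deep clusters lay between. Cluster 6, led by histone genes, had 7 genes lower in both libraries against 12.2% of all genes and 0 higher against 10.9%. Cluster 3, also led by histone genes, had 3 lower against 9.01% and 0 higher against 9.87%. Cluster 7 was the other cluster named G2 and mitosis-like, and no gene was apart there, against 8.35% higher and 12.5% lower. In cluster 9, led by Stmn4 and Dll3, 1 was lower against 15.4% and 0 higher against 4.59%. In cluster 2, which was S phase entry-like, the medians were −0.05 and −0.10, with 0 genes higher against 11% and 1 lower against 7.56%. Cluster 5 was cycle exit or neuroblast-like, and its medians were 0.08 and 0.10 with 0 genes apart either way, against 15% higher and 16.6% lower among all genes. Cluster 8, led by Tead2 and Gli3, had 15 of 15 mid S phase and 11 of 18 S phase entry markers raised. Here 7 genes were higher against 11% and 1, Cox6a2, lower against 12.3%. Cox6a2 was under 10 CPM in each whole library. Of its 564 aged UMIs 271 came from cluster 11, which is among the cells set against cluster 8. Cluster 10, led by Serpinb8 and Gja1, had 17 of 18 G2 and mitosis markers raised. There 3 genes were higher against 12% and 0 lower against 14.8%. Of 18 markers of astrocytes or quiescent stem cells 5 were raised in cluster 8 and 3 in cluster 10. Uqcrc1 and Cox6b2 were among the higher ones in clusters 1, 8 and 10. The spread between cells within a cluster was wide. In cluster 1 the middle 90% of young cells had 3.04% to 5.17% of their UMIs from the set, and in cluster 4 2.40% to 3.48%.

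Cluster 11 was integrated stress response-like, with 15 of 15 markers raised and the stress genes Trib3, Nupr1, Slc7a3 and Chac1 among its 10 leading genes. The integrated stress response is the programme of ATF4 and CHOP that follows, among other triggers, failing mitochondria or a lack of amino acids. The cluster held 60 young cells (2.27%) and 138 aged cells (5.46%). The gene that stood highest of all in this cluster relative to other cells was a complex IV gene, Cox6a2, although the 81 genes had not been used for the grouping. It lies at chr7:128205435-128206387 (minus strand). Cox6a2 stood at 74.2 CPM in the cluster against 1.86 CPM in the other young cells, 40.0-fold (29.9 to 53.4). In the aged library it stood at 86.6 against 5.14 CPM, 16.8-fold (14.2 to 19.9). Thus 90 of 197 young Cox6a2 UMIs (45.7%) and 271 of 564 aged ones (48.0%) came from this cluster.

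At the level of cells, 17 of 56 young cells of cluster 11 (30.4%, 18.8% to 44.1%) and 33 of 134 aged cells (24.6%, 17.6% to 32.8%) had a Cox6a2 UMI after each cell was thinned to 5000 UMIs. Without thinning the shares were 48.3% and 50%. In the other deep clusters no thinned share was above 3.42%, and without thinning the share reached 8.99% in aged cells of cluster 10. The part of stray RNA was not tested. Cox6a2 gave 13.4% (10.9% to 16.2%) of Cox6a UMIs in the young cells of the cluster, so Cox6a1 remained the main form even there. Over all cells Cox6a2 was at 9.38 CPM in aged against 3.35 CPM in young cells. With the clusters weighted the same in both libraries the ratio went from 2.80 to 1.76. Inside the cluster the ratio of aged over young was 1.17 (0.916 to 1.498), and outside it 2.77 (2.21 to 3.49), where the level was 5.14 against 1.86 CPM.

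The rest of the set did not follow Cox6a2 in cluster 11. Of 78 genes tested 3 were higher in both libraries against 13.8% of all genes, and 5 were lower against 18.1%. Cox6a2 was 1 of the 3, but it reached 10 CPM only inside the cluster, so its call follows in part from how it came to be tested. Besides Cox6a2, the higher ones were Uqcrq and Ndufa7. Uqcrq stood at 969 against 594 CPM in the young and at 1097 against 628 CPM in the aged library, 1.63-fold (1.54 to 1.73) and 1.75-fold (1.69 to 1.81), and was the highest complex III transcript there. Ndufa7, an accessory subunit of complex I, was 1.22-fold and 1.27-fold higher. The lower ones were Ndufb10, Ndufv1, Uqcrh, Uqcrc1 and Cox6b2. Uqcrc1 stood at 138 against 225 CPM in the young and at 170 against 225 CPM in the aged library. Ndufb10, an accessory subunit of the membrane arm, stood at 217 against 360 CPM and at 266 against 361 CPM. Cox6b2 rested on 10 young and 54 aged UMIs. By any amount, 26 of the 78 genes were higher in both libraries, against 37.6% of all genes, among them 0 of 7 core and 16 of 30 accessory subunits of complex I. The difference between these classes was not tested.

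**Figure D4:**
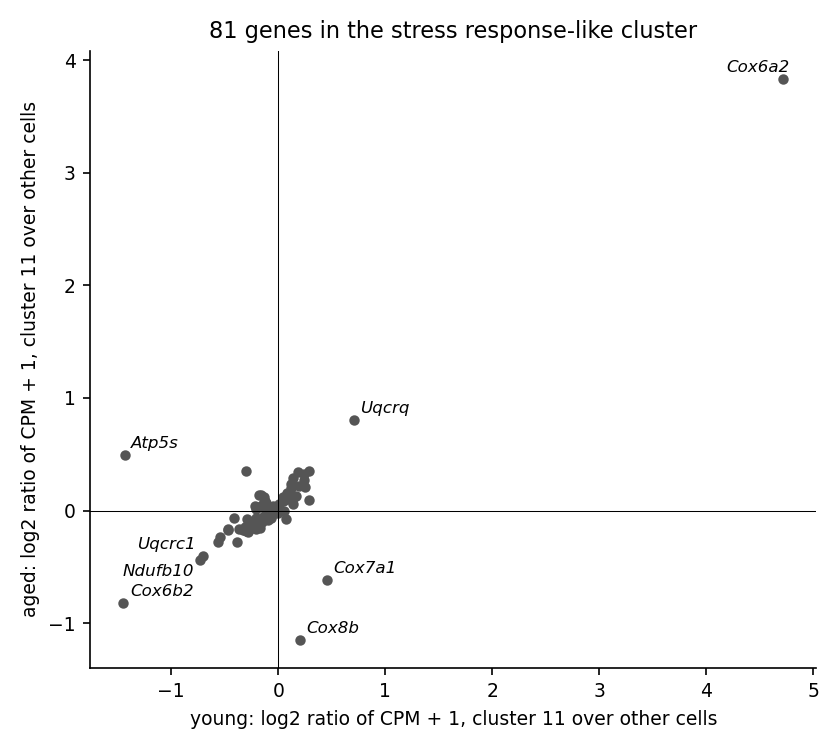
Each point is 1 of the 81 genes, with the log2 ratio of CPM plus 1 in cluster 11 over all other cells in the young library on the x axis and in the aged library on the y axis. Cox6a2 lies alone at the upper right, at 74.2 against 1.86 CPM in the young library, Uqcrq lies next, and Uqcrc1, Ndufb10 and Cox6b2 lie at the lower left, while Atp5s, Cox7a1 and Cox8b rest on few UMIs.

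The ends of the range over deep clusters sat in few states. Of the 76 genes 45 had their highest level in cluster 1 in both libraries, against 4.47% of all genes, and 9 in cluster 11, against 9.21%. Apart from Cox6a2, Cox6b2 and the genes under 10 CPM, the widest range in the young library was that of Uqcrc1, 2.25-fold between the highest and lowest cluster, and in the aged library that of Uqcrq, 1.95-fold. The aged range of Uqcrc1 was 1.86-fold and the young range of Uqcrq 1.78-fold. Ndufv3 had ranges of 2.01-fold (young) and 1.80-fold (aged), and Ndufb10 of 1.89-fold and 1.60-fold. The most even genes included Ndufs4, at 1.15-fold and 1.17-fold, Ndufa5, at 1.16-fold and 1.202-fold, and Atp5g2, at 1.199-fold and 1.12-fold. Cox6a2, Ndufb11 and Cox7a2l followed the other members least, with r of 0.04, 0.06 and 0.07. Over the 3 c subunit genes the states differed, since Atp5g2 was highest in cluster 11 (992 CPM young, 1087 CPM aged) and Atp5g3 lowest there (438 and 531 CPM).

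The third comparison set aged against young cells within each cluster. The summed share of the set was higher in the aged cells of 13 of 13 clusters, although in cluster 13 the interval of the ratio, 0.998 to 1.08, included 1. All clusters share the same pair of libraries, so they are not independent of each other. The ratio was 1.104 (1.099 to 1.109) in cluster 1, 1.101 (1.094 to 1.107) in cluster 8, 1.0998 (1.092 to 1.108) in cluster 10 and 1.127 (1.114 to 1.140) in cluster 11. In the other deep clusters it lay between 1.025 and 1.067. At least 1.2-fold higher in the aged cells were 18 of 76 genes in cluster 1 against 11.4% of all genes, 19 of 76 in cluster 8 against 12.1%, 20 of 77 in cluster 10 against 17%, and 22 of 78 in cluster 11 against 18.3%. In clusters 2 to 7 and 9 the counts were 3 to 9, against 11.3% in clusters 2, 4 and 6, 14% in cluster 3, 15.3% in clusters 5 and 9 and 16.8% in cluster 7. By any amount, 69 of 76 genes were higher in aged cells of cluster 1 against 49.6% of all genes, 64 of 76 in cluster 8 against 46.9%, 66 of 77 in cluster 10 against 51.9%, and 72 of 78 in cluster 11 against 47.9%. The medians of the mitochondrially encoded genes in these 4 clusters were 0.14, 0.22, 0.20 and −0.01. Complex IV had the largest median of the 5 complexes in clusters 1, 8 and 10, with 0.23, 0.23 and 0.25.

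In cluster 1 Atp5k stood at 355 CPM in the aged against 240 CPM in the young cells, Atp5e at 563 against 383 CPM and Ndufa3 at 132 against 93.7 CPM. Cox6b2 stood at 52.2 against 33.1 CPM. Cox7a2l was lower there too, at 373 against 449 CPM, as was Sdhd, at 206 against 234 CPM. In cluster 11 Ndufa3 stood at 127 against 84.9 CPM, Ndufv3 at 121 against 79.1 CPM and Ndufa2 at 422 against 317 CPM, and Ndufc2 was lower, at 908 against 1010 CPM.

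The shallow clusters differed in another way. Cluster 12 had Cox6a2 among its 10 leading genes too, with only 18 cells per library deep enough for thinning. In cluster 12, with 82 young and 73 aged cells, the set took 4.51% and 5.04% of UMIs, and 53 of 77 genes were higher in both libraries against 13.8% of all genes and 0 lower against 34.7%. Mitochondrially encoded genes took only 3.29% and 3.12% of UMIs there and ribosomal protein genes 20.3% and 20.1%. In cluster 13, with 66 and 75 cells, 4 genes were higher against 22.3% and 21 lower against 15.3%, and mitochondrially encoded genes took 2.27% and 2.65%. Neither cluster was named, and the part of low depth was not tested.

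The cell filter bears on this set, since it removes cells by their mitochondrially encoded UMIs, the partners of these genes in 4 of the 5 complexes. Among barcodes with at least 1000 detected genes, the share of the set among nuclear-encoded UMIs was higher where the mitochondrially encoded share was higher, from 5% up to 20%. Below 5% lay 343 young and 304 aged barcodes with medians of 2700 and 2938.5 UMIs, and the share there was 3.76% and 3.84%, above the next range. In the young library it was 3.47% in barcodes with 5 to 7.5% mitochondrially encoded UMIs, 3.77% with 7.5 to 10%, 4.50% with 10 to 15% and 5.83% with 15 to 20%. In the aged library the same steps were 3.58%, 3.99%, 4.94% and 6.48%. Over these 4 ranges each complex had a higher share at each step, complex II from 0.0825% to 0.1325% in the young library and complex IV from 0.788% to 1.44%. Ribosomal protein genes went the other way, from 16.5% to 11.8% in the young and from 16.5% to 12.4% in the aged library. Above 20% the set reached 6.03% in 78 young and 7.48% in 48 aged barcodes, which were shallower. There complex II of the young library was at 0.1315% and complex V at 1.65%, against 1.71% for complex V at 15 to 20%.

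**Figure D5:**
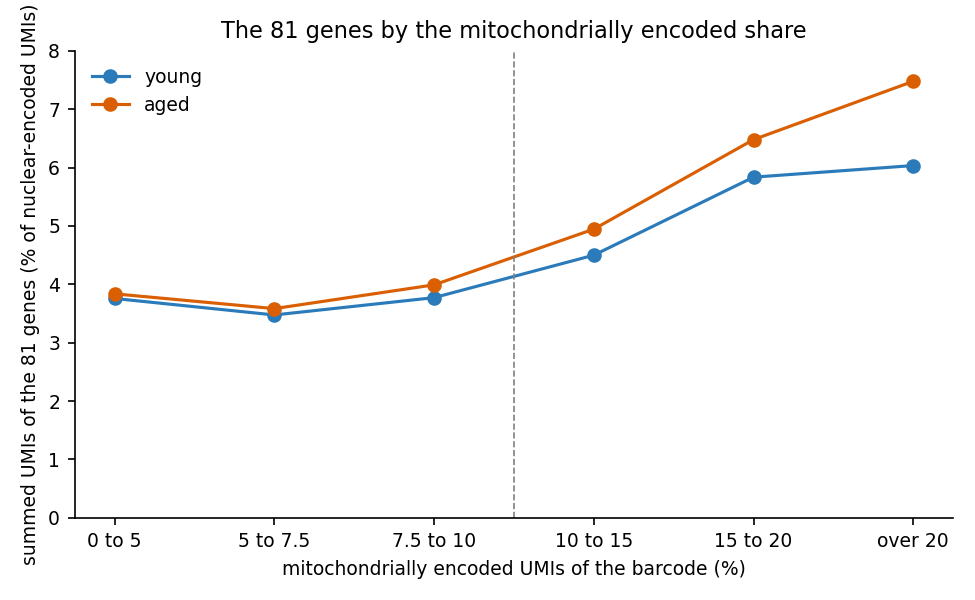
The x axis gives ranges of the share of mitochondrially encoded UMIs per barcode among barcodes with at least 1000 genes, the y axis the summed UMIs of the 81 genes as a percentage of nuclear-encoded UMIs, and the 2 lines are the libraries. The dashed line marks the 10% limit of the cell filter. From 5 to 7.5% up to 15 to 20% the values go from 3.47% to 5.83% in the young and from 3.58% to 6.48% in the aged library.

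With the limit raised to 20% and the clusters computed anew, many of these cells formed an astrocyte or quiescent stem cell-like cluster, with 13 of 18 markers raised and Apoe and Aqp4 among its leading genes. It held 595 young and 533 aged cells, of which 80.0% and 82.7% were over the 10% limit. The set took 4.67% of its UMIs for young and 5.22% for aged cells, against 3.46% and 3.70% in the other cells. Of 80 genes tested, 74 were at least 1.2-fold higher in both libraries against 20.9% of all genes, and 0 were lower against 31%. Cox8b, Atp5s and Atp5sl, counted among the higher ones, reached 10 CPM only inside this cluster. Their calls thus follow in part from how they came to be tested. Mitochondrially encoded genes took 12.9% and 13.3% of UMIs in this cluster. The share of each complex was higher, for example 0.111% against 0.0803% for complex II and 0.466% against 0.317% for complex III in the young library.

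The genes with the largest ratios in that cluster were the rare isoforms. Cox6b2 stood at 77.6 against 26.9 CPM in the young and at 95.2 against 38.4 CPM in the aged library. Cox8b, the heart and muscle form of subunit 8, stood at 10.1 against 2.37 CPM and at 13.7 against 3.64 CPM, and Cox7a1 at 5.77 against 1.21 CPM and at 4.55 against 1.32 CPM. Ndufv3 was at 195 against 101 CPM and at 187 against 101 CPM, and Uqcrc1 at 393 against 226 CPM and at 414 against 234 CPM. Cox6a2, in contrast, was at 1.23 against 3.68 CPM in the young and at 14.04 against 11.5 CPM in the aged library. The even genes were Atp5g2 (878 against 893 CPM young, 1036 against 1002 CPM aged) and Ndufa5 (223 against 205 CPM, 310 against 258 CPM). Aged over young, the median log2 ratio within this cluster was 0.19, beside −0.01 for all genes, and 17 of 80 genes were at least 1.2-fold higher against 11.9% of all genes. In the stress response-like cluster of the same grouping Cox6a2 again stood apart, at 62.8 against 1.72 CPM in the young and at 97.5 against 6.61 CPM in the aged library. Of 77 genes 2 were higher there in both libraries against 12.3% of all genes and 8 lower against 19.2%. Cox6a2, 1 of the 2, again reached 10 CPM only inside the cluster. At least 1.2-fold higher in its aged than in its young cells were 34 genes against 15.3%. A G2 and mitosis-like cluster of 249 young and 272 aged cells had 47 of 77 genes lower in both libraries against 15.1%, with medians of −0.30 and −0.34.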

How the data were processed

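For each library the authors deposited unnormalized UMI counts for every gene in every barcode. Per the submitters' processing notes these come from Cell Ranger 3.0.2 and the mm10 build. The gene annotation and the handling of reads that match several places are not given in the sources used here, so genes with near-identical copies may have lost or gained reads. Barcodes passed when 1000 or more genes were detected and mitochondrially encoded UMIs were no more than 10%. Of these, Scrublet in scanpy 1.11.5 (expected rate 0.06) marked 11 young (0.415%) and 10 aged ones (0.394%) as doublets, which were removed. This left 2639 of 5151 young and 2527 of 4731 aged barcodes. At such rates the caller cannot be taken to have worked, so doublets are taken to remain in the data. Counts were summed over kept cells and scaled to CPM. The log2 ratios use CPM plus 1, while ratios, with exact conditional binomial 95% intervals, use the UMIs and library totals. Shares have Clopper-Pearson intervals. UMI counts, intervals and shares cover counting error only, and with 1 library per age no p-value was computed.

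Clusters came from 2000 variable genes without the 81 genes and the mitochondrially encoded genes, 30 principal components, 20 neighbours and Leiden resolution 1 (leidenalg 0.10.2), with no integration of the libraries. A cluster was named when at least 3 markers of a type were raised 1.5-fold, at least 2 of them were among its 10 leading genes, both counts exceeded those of every other type, and its median depth was not below 1/3 of its library's. This naming rule, the grouping by transcript length and the split of complex I into core and accessory subunits were made after values had been seen. A rebuilt grouping can differ from that of the study. The genes, lists and comparisons were chosen with earlier results of these data known. Genes named with values are, in each complex, the 3 most and the least abundant, the 2 with the highest and the 2 with the lowest ratio, the isoform pairs and the ends of the range over clusters. Members of other lists are those with large ratios, and further genes were picked after their values were seen. All 81 identifiers were found in GENCODE vM21, 1 under another symbol (Atp5sl as Dmac2). The comparison of the libraries was tested on simulated data with 8238 genes. It called 0% of 8038 unchanged genes, 1% of genes given a 1.1-fold change and 100% with a 1.5-fold one, with counting noise only and no spread between libraries of the same age. Python 3.11.15, numpy 2.4.6, scipy 1.17.1 and pandas 2.3.3 were used. Values of some genes are not reported here.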

Additional observations from a re-analysis of the deposited data

Results flagged for a closer look

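Barcodes with at least 1000 genes but more than 10% mitochondrially encoded UMIs enter none of the main comparisons, and the 81 genes took a larger share of nuclear-encoded UMIs there than in the kept cells. With 10 to 15% mitochondrially encoded UMIs the share was 4.50% in 1294 young and 4.94% in 1222 aged barcodes. With 15 to 20% it was 5.83% in 178 young and 6.48% in 182 aged barcodes. The barcodes just under the limit, with 7.5 to 10%, had 3.77% and 3.99%, called doublets included. Median depth in the left-out ranges, 23125 to 30317 UMIs, was close to or above that of kept cells.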

How the results depend on the processing

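The summed share of the set stayed higher in the aged library under each of the 10 alternatives run for it. Its ratio of 1.05 became 1.076 with the limit on mitochondrially encoded UMIs at 20%, 1.080 with no cell filter, 1.036 with scaling by the median ratio over all genes, 1.068 with states weighted the same in both libraries, 1.056 with cells thinned to 5000 UMIs and 1.047 without the deepest 5% of cells. The median log2 ratio of 0.07 became 0.115, 0.120, 0.047 and 0.092 under the first 4 of these. Under a 1.5-fold rule 0 genes were higher. At Leiden resolution 0.5 the share was higher in the aged cells of 7 of 7 clusters. The cluster richest in astrocyte markers had 52 genes higher when the 81 genes took part in the clustering, 74 at the 20% limit with clusters computed anew and 0 under the 1.5-fold rule, and 1 gene lower in CPM outside mitochondrially encoded and ribosomal protein genes. In the G2 and mitosis-like cluster the count of lower genes was 47 at the 20% limit, 16 in CPM outside those genes and 0 under the 1.5-fold rule. In the stress response-like cluster 5 genes were higher and 3 lower in CPM outside those genes, 8 were lower at the 20% limit, and 1 was lower under the 1.5-fold rule. The causes were not tested. Leaving out the shallow clusters 12 and 13, and taking shares of UMIs outside mitochondrially encoded genes, were chosen after seeing the data. Over all alternatives 177 values stayed within their limit and 94 moved further. The limit was the counting interval for ratios between whole libraries and 1.5 times for counts. For medians and for ratios of clusters it was a small fixed margin on the log2 scale. The summed share of complex II, whose ratio of 0.997 had an interval that included 1, was above 1 under 5 alternatives, at 1.031 and 1.035 with the 20% limit and no cell filter, 1.007 with cells weighing the same, 1.024 with states weighted the same and 1.018 with thinning. No other summed share changed its direction, nor did the ratios of Cox6a2, Atp5k, Ndufa3, Cox6b2, Atp5e, Ndufa5, Cox7a2l, Sdhd and Ndufc2. The other genes were not followed singly. The count of 58 genes higher by any amount ran from 52 to 70 over 13 alternatives, and the number of genes tested varied too. No paired analysis was possible because each age has 1 library, and no replicate could be left out for the same reason. Depth limits Cox7a1, Cox8b, Atp5s and Atp5sl, which have few UMIs per cluster.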

Other observations

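Outside the set, genes whose level over the 11 deep clusters of both libraries was most like the summed level of the 81 genes included Pnkd, Dnlz, S100a10, Acadm, Minos1, Sod2, Abhd17a, Fermt2 and Smim20, by Pearson r of log2 CPM over 22 points among 3278 genes ranked. Their r ran from 0.94 for Pnkd to 0.88 for Smim20. Acadm encodes a dehydrogenase of fatty acid oxidation and Sod2 the mitochondrial superoxide dismutase. The points share libraries and cells, and the values are a description.

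The letters TGATGNAA, searched as a part of the amino acid response element that ATF4 and CHOP bind, were in 0 of 69 promoter windows of the set. They were in 4.51% of 27025 genes. This search was added to those chosen at first, and 69 windows are few for letters this rare. The window of Cox6a2, the gene that stood apart in the stress response-like cluster, was not among the 69.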
